A study of Homo sapiens with 8 samples.

Results

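The ESCRT machinery was examined as a set of 34 genes, listed by symbol and matched 1 to 1 to the gene identifiers of a table of 58206 genes. Membership was set by gene name and by no measured value, though the list was chosen with earlier results of these data known. Gene expression was measured by RNA sequencing in Alexander1 cells, an established human epithelial line from a hepatocellular carcinoma. The parental group, given as wt (Axin1 -), held 4 libraries. By the submitters' description this line carries an Axin1 that has lost the region binding the kinase GSK3, so that Wnt signalling is permanently on. The other group, labelled Axin1+, also held 4 libraries, from a stable derivative to which full-length Axin1 was returned. The labels list the retroviral gene transfer and the hygromycin selection of clones under all 8 samples. They do not say whether the 4 Axin1+ libraries come from 1 clone, or whether replicates are separate cultures, so the p-values measure only the spread between these libraries.

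ESCRT (endosomal sorting complexes required for transport) is a relay of protein complexes that sorts ubiquitinated membrane proteins into vesicles budding inward into the endosome, which thereby becomes a multivesicular body. ESCRT-0 gathers the ubiquitinated cargo, ESCRT-I and ESCRT-II deform the membrane, ESCRT-III filaments cut the vesicle neck, and the ATPase VPS4 takes the filaments apart. The same filaments also act in cell division, nuclear envelope sealing and virus budding. In Wnt signalling, multivesicular bodies are known as a place where activated receptors and GSK3 are taken out of the cytosol, and the series as a whole concerns the endocytosis of focal adhesions and integrin beta-1 under Wnt signalling.

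Of the 33 ESCRT genes with enough counts to be tested, 3 (9.09%) rose in the libraries labelled Axin1+ and 0 fell, below the 19.2% of all 14289 tested genes that were called. They were LITAF, a small endosomal membrane protein that binds ESCRT components, CHMP1B, a late-acting ESCRT-III subunit, and VTA1, the cofactor of VPS4. LITAF was 2.13-fold, CHMP1B 1.49-fold and VTA1 1.45-fold higher, and the VTA1 call was lost in 7 of 19 alternative analyses. The upstream sequences of these 3 genes are shown because they are the members called, all as higher. Whether they share any regulation was not tested. They are from RefSeq (GRCh38.p14), 5′ to 3′ on the gene's strand, and were trimmed so that no annotated exon is included. The LITAF stretch is chr16:11586951-11587150 on the minus strand and ends at a RefSeq start. The CHMP1B stretch is chr18:11851163-11851395 on the plus strand and ends 17 bases before the start. The VTA1 stretch is chr6:142147013-142147161 on the plus strand and ends 101 bases before it. Capitals mark the palindrome TGACGTCA, which holds the core of the cAMP response element on both strands.
LITAF: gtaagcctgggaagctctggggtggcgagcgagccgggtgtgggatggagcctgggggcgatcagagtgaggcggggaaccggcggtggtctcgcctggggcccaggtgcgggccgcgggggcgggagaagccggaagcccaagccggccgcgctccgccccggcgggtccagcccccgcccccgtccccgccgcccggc
CHMP1B: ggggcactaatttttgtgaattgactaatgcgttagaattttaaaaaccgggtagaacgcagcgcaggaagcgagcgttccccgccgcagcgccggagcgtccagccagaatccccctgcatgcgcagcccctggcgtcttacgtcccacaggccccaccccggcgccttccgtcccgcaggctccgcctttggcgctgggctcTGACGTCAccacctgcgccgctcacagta
VTA1: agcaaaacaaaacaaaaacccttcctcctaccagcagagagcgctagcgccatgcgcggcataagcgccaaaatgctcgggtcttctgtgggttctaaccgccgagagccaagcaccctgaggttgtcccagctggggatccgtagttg

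Promoter windows of 250 bases were available for 26 of the 34 genes, and 3 motifs were searched on both strands. CTTTGA, the core bound by TCF and LEF, the transcription factors of the Wnt pathway, was in the windows of CHMP4B and STAM, or 7.69% of the members, against 10.8% of the 10546 tested genes with a window. CACGTG, the palindromic E-box, was in 4 windows, those of CHMP4A, PDCD6IP, VPS36 and VPS37B (15.4% against 11.2%). TGACGT, the cAMP response element core, was in 8 windows (30.8% against 12.7%), those of CHMP1B, CHMP2A, HGS, TSG101, UBAP1, USP8, VPS37B and VTA1. It was searched after the sequences had been seen. Of these 8 genes CHMP1B and VTA1 passed the test of expression, and the VTA1 match lies within an annotated exon, outside the stretch shown. A match is a run of letters and was not tied to any factor.

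Library totals ran from 11232951 to 15263761 counts in the parental group and from 12372436 to 26400782 in the Axin1+ group, so that 3 counts stood for 0.108 to 0.267 CPM (counts relative to a TMM-scaled library total, the unit of level used here). AXIN1 was read beside the labels. In the parental group its values were 55.3, 52.8, 47.4 and 54.2 CPM, and in the Axin1+ group 47.6, 48.0, 48.2 and 37.7 CPM, in the order of the replicate numbers used here throughout. Its log2 fold change, Axin1+ over parental, was -0.21 (SE 0.12, adjusted p = 0.267, edgeR's quasi-likelihood test). Counts at the AXIN1 gene were thus not higher in the libraries labelled Axin1+, and each direction given here rests on the labels. A gene total does not separate full-length Axin1 from the form of the parental line. Whether reads of the returned Axin1 were counted at this gene is not given. All 10 hepatocyte markers were tested, with a summed level of 23591 to 27490 CPM in the parental and 18225 to 21774 CPM in the Axin1+ group, of which SERPINA1 made up the largest part. FGB and TTR rose (4.13-fold and 3.38-fold) and SERPINA1 and TF fell (to 0.642 and 0.523 of the parental level), so that 40% of this list was called. TTR was low, at 1.42 to 5.35 CPM in the parental libraries, and ALB was at 13.8 CPM in Axin1+ replicate 1 against 445 to 681 CPM in the other Axin1+ libraries. Leukocyte markers had 0 of 6 genes tested, with CD3E at 0 in all libraries and summed levels of 0.143 to 1.96 and 0.394 to 0.664 CPM. The endothelial sum was 4.58 to 6.77 CPM and 34.1 to 58.5 CPM, through PECAM1 (log2 fold change 3.22), while TEK was at 0 in all libraries and the other 3 endothelial genes were too low to be tested. Of the epithelial markers 4 of 5 were tested and CDH1 rose, with sums of 4149 to 5142 and 3465 to 5123 CPM. KRT19 was at 16.9 CPM in parental replicate 1, against 1.29 to 3.99 CPM in the other parental libraries. In Axin1+ replicate 1 KRT19 was at 34.4 CPM, against 0.078 to 1.43 CPM in the other Axin1+ libraries. Of the fibroblast markers 2 of 6 were tested and 1 fell, and their sums were 2.71 to 3.22 and 1.23 to 4.59 CPM. The part of these markers in the results was not tested, and in bulk RNA a change in the share of a cell type and a change in RNA per cell cannot be told apart.

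Among members, levels were compared per kilobase of exon, on the scale of CPM per kb. CHMP4B, the most used filament subunit of ESCRT-III, was the most abundant at 161 ± 22.0 (SD, n = 4) in the parental libraries, followed by CHMP2A at 71.1 ± 25.6 (SD, n = 4). CHMP1B stood at 42.8, VPS25 at 36.2 and LITAF at 33.9. ESCRT-III thus held the most abundant genes, while its lowest tested gene, CHMP6, stood at 6.96. The median of the 33 genes was 12.8. In ESCRT-0 the range was 2.79 (STAM2) to 17.2 (HGS), in ESCRT-I 0.776 (MVB12B) to 20.8 (TSG101), and in ESCRT-II 8.70 (VPS36) to 36.2 (VPS25). The VPS4 complex lay lower, from 5.43 for VPS4B to 8.99 for VPS4A. The length used is that of all annotated exons joined, so that genes with long alternative exons are set low, such as USP8 with 20639 bases.

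**Figure D1:**
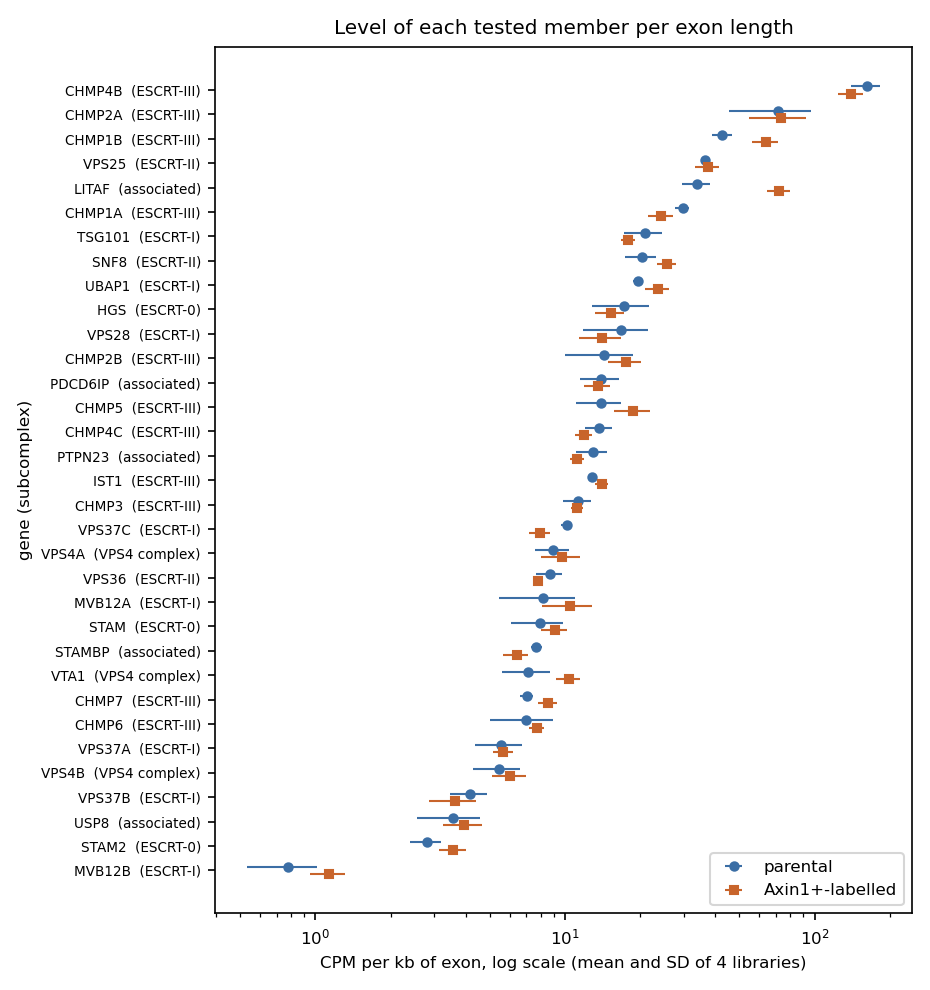
Level of each tested ESCRT gene in CPM per kilobase of exon, on a log axis, as the mean and SD of 4 parental libraries (blue circles) and 4 libraries labelled Axin1+ (orange squares). CHMP4B is highest at 161 and MVB12B lowest at 0.776 in the parental group, and LITAF stands apart between the groups, at 33.9 and 72.1.

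The main comparison asked how many ESCRT genes differed between the groups. The 3 genes were called at an adjusted p under 0.05 in edgeR's quasi-likelihood test with Benjamini-Hochberg adjustment over all 14289 genes. Over all genes 10.4% were called as higher and 8.77% as lower. Scaling by total counts alone changed that split to 1724 higher and 868 lower, from 1485 and 1253. At an unadjusted p under 0.05 there were 11 members, 9 higher and 2 lower (33.3% of those tested, against 33.5% of all genes). The values of the groups did not overlap in 8 members (24.2%, against 23.9% of all genes). The share called was thus below the background, and the other shares were close to it.

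The sizes of the differences were small. The median log2 fold change of the tested members was 0.11, against 0.00 for all genes, and the median absolute value was 0.20 against 0.31. The point values ran from -0.35 for VPS37C to 1.09 for LITAF. Of the 30 members that were not called, 29 (96.7%) had a 95% interval within a 2-fold change either way, against 75.0% of the genes not called in the whole table. An interval within 1.5-fold was reached by 19 of them (63.3%, against 35.6%). Members and all genes were not matched for expression level, and the part of level in these figures was not tested. The exception at 2-fold was MVB12B, the lowest member, with an upper bound of 1.08 on the log2 scale. The summed level of the members was 2582, 2388, 2329 and 2268 CPM in the parental libraries and 2570, 2759, 2677 and 2629 CPM in the Axin1+ ones. These ranges overlapped through parental replicate 1. The sums include the 3 called genes, of which LITAF alone went from a mean of 171 to 365 CPM. Sums of all members without the called genes were not taken, so these sums do not show a broad rise.

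**Figure D2:**
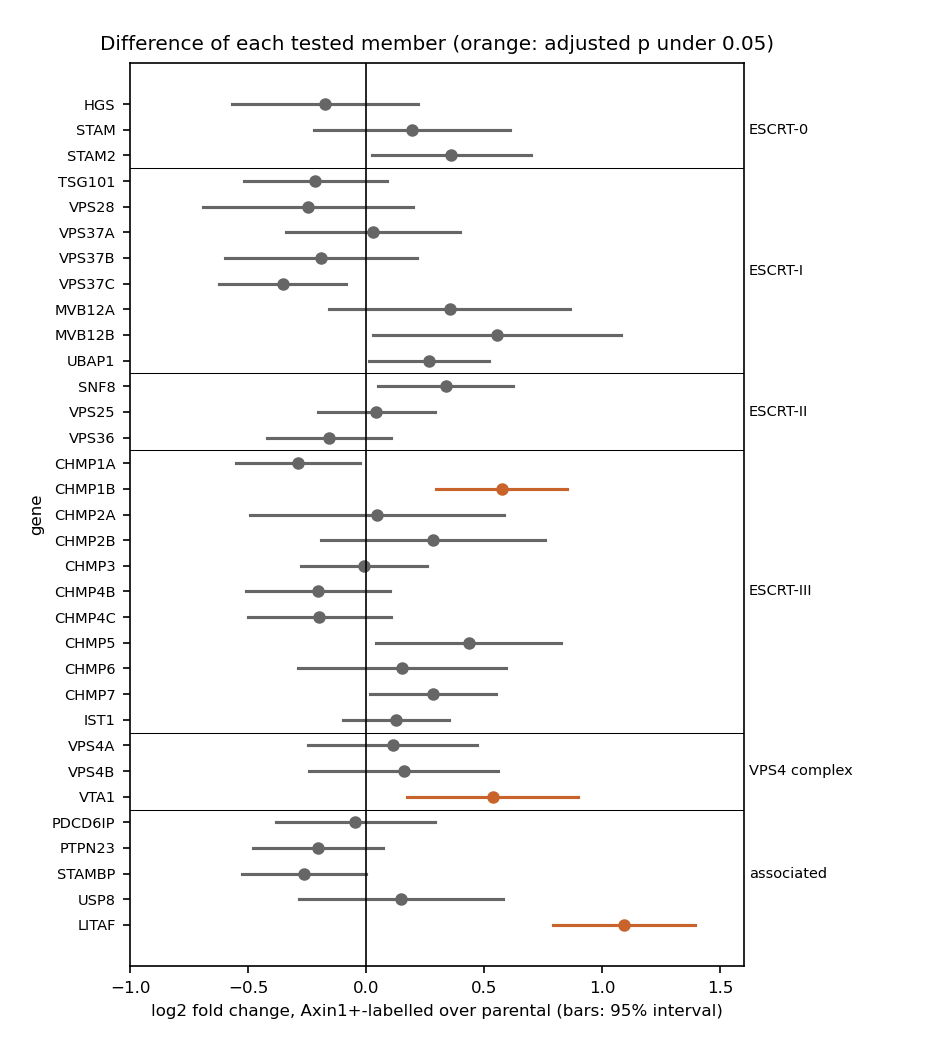
Log2 fold change, Axin1+ over parental, of the 33 tested ESCRT genes by subcomplex, with 95% intervals; orange marks an adjusted p under 0.05. LITAF, CHMP1B and VTA1 lie to the right at 1.09, 0.57 and 0.53, and most other intervals include 0.

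**Figure D3:**
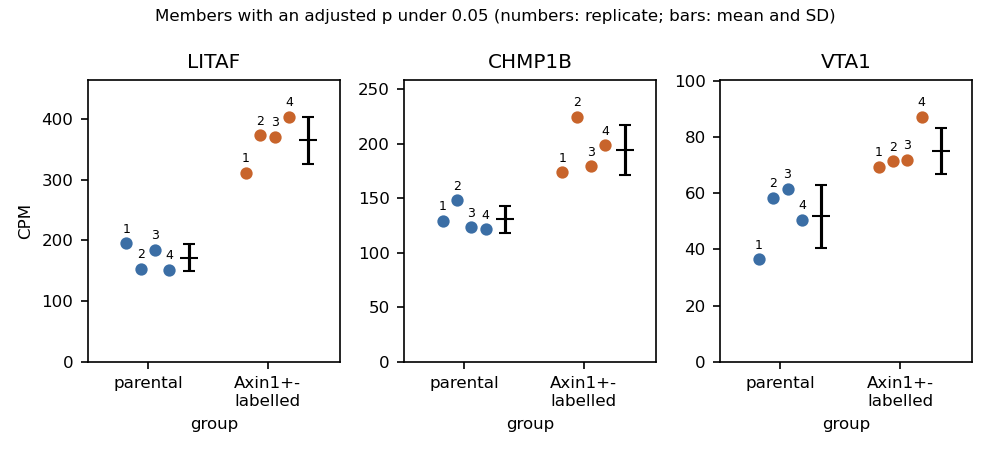
CPM of the 3 called members in each library, with replicate numbers, and the mean and SD (n = 4) of each group; each panel's axis starts at 0. All 4 libraries labelled Axin1+ lie above all 4 parental ones in each panel, with the widest gap in LITAF.

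Of the 5 ESCRT-associated genes, LITAF rose and the other 4 did not pass the test. LITAF (ENSG00000189067, chromosome 16, 11547722 to 11636381 in GRCh38, minus strand) was at 195.5, 153, 185 and 152 CPM in the parental libraries and at 312, 373, 371 and 404 CPM in the Axin1+ ones. The lowest Axin1+ library lay well above the highest parental one. The means were 171 ± 22.1 and 365 ± 38.5 CPM (SD, n = 4 each), and the log2 fold change was 1.09 (SE 0.14, 95% interval 0.79 to 1.39, adjusted p = 0.000558). The 20 nearest tested genes on each side had a median log2 fold change of 0.04. LITAF passed the threshold in all 19 alternative analyses, with log2 fold changes from 1.03 to 1.18. It is the gene for a protein that directs membrane proteins to lysosomes and is mutated in a form of Charcot-Marie-Tooth neuropathy.

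The other associated genes act beside the relay. PDCD6IP (ALIX), which recruits ESCRT-III without ESCRT-II, had a log2 fold change of -0.05 (95% interval -0.38 to 0.29). PTPN23, a related Bro1-domain protein, was at -0.20 (-0.48 to 0.07). The deubiquitinases STAMBP (AMSH) and USP8, which strip ubiquitin from cargo, were at -0.26 (adjusted p = 0.150) and 0.15 (adjusted p = 0.641). STAMBP was at 60.3, 57.8, 62.4 and 56.0 CPM in the parental libraries and at 55.9, 42.7, 47.0 and 51.3 CPM in the Axin1+ ones, so that the groups only just did not overlap. It passed the threshold once the GC and length trend of each library was removed (log2 fold change -0.35, adjusted p = 0.0275). The summed level of the 5 genes was 488 to 525 CPM in the parental and 648 to 735 CPM in the Axin1+ libraries, with no overlap. Without LITAF the sums were 327, 335, 341 and 342 CPM against 336, 311, 301 and 331 CPM, which overlapped.

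Of the 12 ESCRT-III genes, 11 were tested, 1 rose and 0 fell, with a median log2 fold change of 0.13. CHMP1B (ENSG00000255112, chromosome 18, 11851396 to 11854449, plus strand) was at 129, 148, 123 and 121.5 CPM in the parental libraries and at 174, 225, 179.5 and 199 CPM in the Axin1+ ones. All Axin1+ libraries lay above all parental ones. The log2 fold change was 0.57 (SE 0.13, 95% interval 0.30 to 0.85, adjusted p = 0.0111), from 131 ± 12.2 to 194 ± 23.0 CPM (SD, n = 4 each), while its 40 neighbours had a median of 0.05. CHMP1B passed in all 19 alternatives as well, with log2 fold changes from 0.48 to 0.65. Its near copy CHMP1B2P held 45 to 111 counts per library, at most 4.91% of the CHMP1B count, and how reads were shared between them is not given. The antisense gene CHMP1B-AS1, which overlaps 553 exon bases, held 0 to 10 counts.

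CHMP1A, the paralog of CHMP1B, pointed the other way. It was at 103, 94.1, 87.7 and 95.4 CPM in the parental libraries and at 78.3, 79.5, 87.5 and 65.6 CPM in the Axin1+ ones. The gap between the groups was narrow, between 87.5 and 87.7 CPM. The log2 fold change was -0.29 (SE 0.12, 95% interval -0.55 to -0.03, adjusted p = 0.115), which did not pass.

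The filament subunits CHMP4B and CHMP4C had log2 fold changes of -0.20 each (adjusted p = 0.327 and 0.342). CHMP4B was at 315, 270.5, 239 and 238 CPM in the parental and at 231, 268, 221 and 203 CPM in the Axin1+ libraries, with overlap. The capping subunits CHMP2A, CHMP2B and CHMP3 were at 0.05, 0.28 and -0.01. CHMP2A was at 232, 135, 120.3 and 118 CPM in the parental libraries, with replicate 1 far above the others, and at 113, 205, 170.4 and 137 CPM in the Axin1+ ones. CHMP6, which links ESCRT-II to CHMP4, was at 0.15 and IST1, a regulator of VPS4, at 0.13. CHMP7, which starts ESCRT-III assembly at the nuclear envelope, was at 0.28 (adjusted p = 0.126) with no overlap: 30.2, 33.9, 33.3 and 34.4 against 42.9, 37.4, 43.3 and 36.7 CPM. CHMP5, which binds VTA1, was at 0.43 (95% interval 0.04 to 0.83, adjusted p = 0.114). CHMP4A had 0 to 5 counts in the parental and 3 to 9 in the Axin1+ libraries and was not tested. In the annotation 1660 of its 2413 exon bases are shared with another gene on the same strand, so its low count does not give its level.

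All 3 genes of the VPS4 complex had a point value above 0, and 1 of them, VTA1, rose. VTA1 (ENSG00000009844, chromosome 6, 142147162 to 142224689, plus strand) was at 36.5, 58.4, 61.6 and 50.6 CPM in the parental libraries and at 69.5, 71.4, 71.9 and 87.2 CPM in the Axin1+ ones. Parental replicate 1 was the lowest and Axin1+ replicate 4 the highest. The log2 fold change was 0.53 (SE 0.17, 95% interval 0.17 to 0.90, adjusted p = 0.0441), from 51.8 ± 11.2 to 75.0 ± 8.22 CPM (SD, n = 4 each). Its neighbours on chromosome 6 had a median of 0.34, and the call was lost in 7 of the 19 alternatives, among them without Axin1+ replicate 4 (0.46, adjusted p = 0.134). The call was also lost without parental replicate 2 or 4 and without Axin1+ replicate 2 or 3, with adjusted p-values of 0.0704, 0.0890, 0.0693 and 0.0888.

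The ATPases themselves, VPS4A and VPS4B, were at 0.11 (95% interval -0.25 to 0.47) and 0.16 (-0.24 to 0.56) and did not pass. VPS4A shares 1245 exon bases with COG8 on the opposite strand, and without a stated use of strand their reads cannot be told apart. The summed level of the 3 genes was 114 to 133 CPM in the parental and 139.9 to 169.5 CPM in the Axin1+ libraries, with no overlap. Without VTA1 it was 77.7, 74.3, 69.8 and 75.8 CPM against 70.4, 85.4, 87.0 and 82.3 CPM, so that the separation rested on VTA1.

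None of the 3 ESCRT-0 genes was called by edgeR, and 1 of them, STAM2, had an unadjusted p under 0.05. HGS (HRS), the ubiquitin-binding organiser of the complex, had a log2 fold change of -0.18 (95% interval -0.57 to 0.22). Its partners STAM and STAM2 were at 0.19 (-0.22 to 0.61) and 0.36 (0.02 to 0.70, adjusted p = 0.125). STAM was at 16.6, 29.9, 28.5 and 28.2 CPM in the parental and at 31.8, 24.7, 28.9 and 32.6 CPM in the Axin1+ libraries. Parental replicate 1 was the low one, and the other libraries overlapped.

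None of the 8 ESCRT-I genes was called by edgeR, with 3 at an unadjusted p under 0.05 and point values split 4 above and 4 below 0. TSG101, the subunit that binds ubiquitin and viral late domains, was at -0.22 (95% interval -0.52 to 0.09) and VPS28, which joins ESCRT-I to ESCRT-II, at -0.25 (-0.69 to 0.20). The alternative subunits VPS37A, VPS37B and VPS37C were at 0.03, -0.19 and -0.35. VPS37C was at 42.5, 39.6, 37.5 and 41.4 CPM in the parental and at 35.2, 30.0, 32.6 and 28.1 CPM in the Axin1+ libraries, with no overlap. Its adjusted p was 0.0664, and it passed as lower with DESeq2 (0.0204), with the GC and length trend removed (0.0393) and without Axin1+ replicate 1 (0.0416).

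The MVB12 subunits and UBAP1 specify ESCRT-I for endosomal sorting. UBAP1 was at 53.9, 53.4, 52.4 and 57.8 CPM in the parental and at 75.8, 64.1, 61.6 and 60.0 CPM in the Axin1+ libraries, a log2 fold change of 0.27 (adjusted p = 0.134) with no overlap. MVB12A was at 49.7, 31.1, 25.9 and 26.2 CPM and at 32.3, 51.3, 50.0 and 36.3 CPM, a log2 fold change of 0.35 (adjusted p = 0.316). MVB12B was at 8.72, 4.40, 6.32 and 5.01 CPM and at 8.75, 7.18, 10.6 and 9.10 CPM, a log2 fold change of 0.55 (adjusted p = 0.131). In both MVB12 genes parental replicate 1 was above the other parental libraries. Without it, MVB12A was at 0.61 (adjusted p = 0.0325) and MVB12B at 0.77 (adjusted p = 0.0207), both past the threshold.

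None of the 3 ESCRT-II genes was called by edgeR, with 1 at an unadjusted p under 0.05. SNF8 (VPS22) was at 129.8, 97.1, 100.7 and 100.5 CPM in the parental and at 130.1, 142, 147 and 121 CPM in the Axin1+ libraries. Parental replicate 1 alone reached into the Axin1+ range. The log2 fold change was 0.34 (95% interval 0.05 to 0.62, adjusted p = 0.0943), and without parental replicate 1 it was 0.44 (adjusted p = 0.0170). It also passed when libraries were scaled by total counts alone (0.42, adjusted p = 0.0272), and its neighbours on chromosome 17 had a median of 0.41. VPS25, the subunit that binds CHMP6, had a narrow interval around 0 (0.04, -0.20 to 0.29), and VPS36, which binds ubiquitin and phosphoinositides, was at -0.16 (-0.42 to 0.11).

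Parental replicate 1 stood apart from the other parental libraries and bears on several of these values. Among the 4 parental libraries it was the lowest in 13 and the highest in 13 of the 33 members, against 38.6% and 37.9% of all tested genes. It lay more than 0.5 on the log2 scale below the others in 8 members, of which 7 had an exon GC content under 45%, CHMP6 being the exception. It lay as far above them in 6 members, of which 5 had a GC content over 45%, USP8 being the exception. Without this library 6 members were called, all higher: LITAF, CHMP1B, VTA1, SNF8, MVB12A and MVB12B. Over all genes, 3523 were then called, against 2738. Over all genes, Axin1+ replicate 1 also stood apart within its group. Its chi-square per degree of freedom over genes was 53.4 to 63.8 against the other Axin1+ libraries, which differed from each other by 19.7 to 42.0, and for parental replicate 1 it was 57.7 to 92.0 against 9.19 to 19.5. Without Axin1+ replicate 1, 4 members were called, VPS37C as lower beside the 3 named above, and 3159 genes in all. Among the 33 members, Axin1+ replicate 1 was the lowest of its group in 8 and the highest in 8. Axin1+ replicate 2 was the lowest in 14 and the highest in 8. Over all tested genes these shares were 28.6% and 31.0% for replicate 1, and 30.9% and 27.9% for replicate 2.

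**Figure D4:**
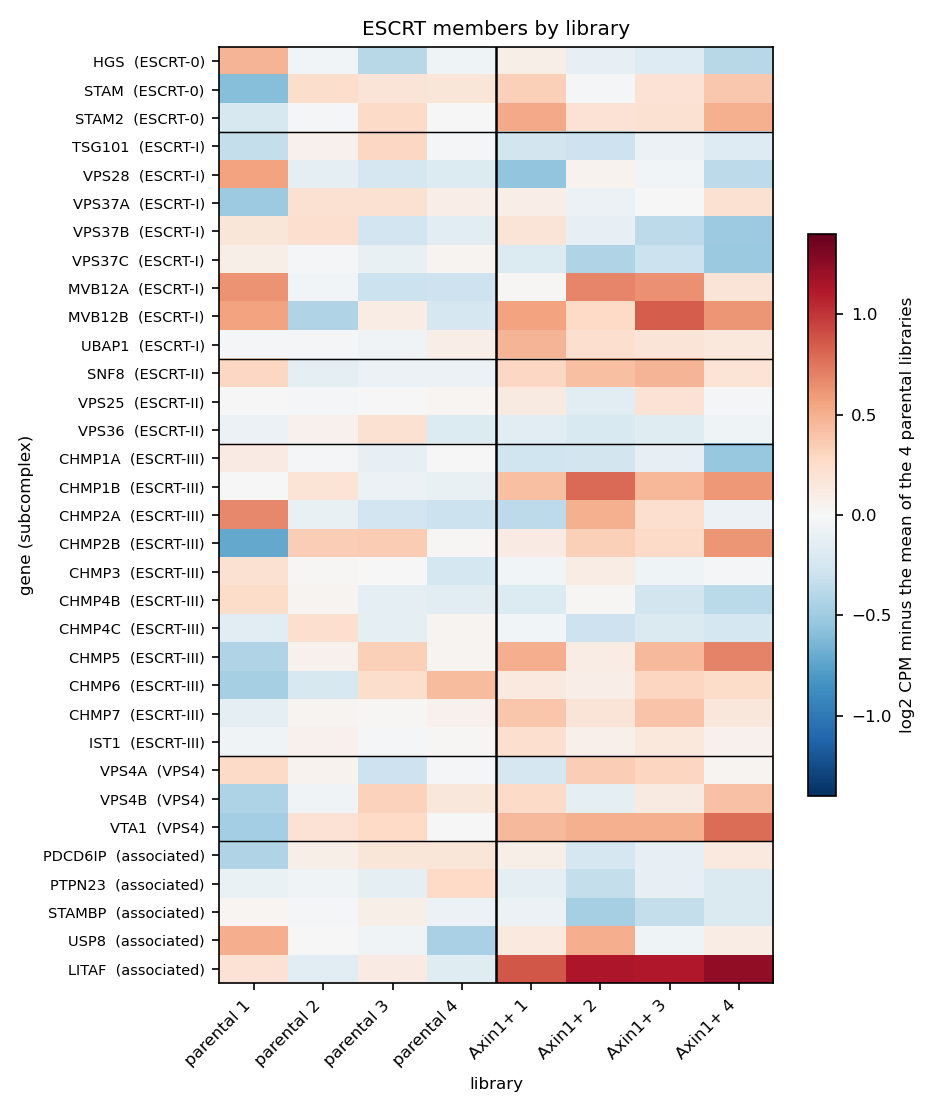
Log2 CPM of the 33 tested ESCRT genes (lines by subcomplex) in the 8 libraries, relative to the mean of the 4 parental libraries; red is higher and blue lower. LITAF is red in all 4 libraries labelled Axin1+, and parental replicate 1 differs from the other parental libraries in both directions.

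Several ESCRT subunits come in related forms, and 10 pairs were compared by their log2 ratio within each library. Most were related forms, while STAMBP and USP8 are deubiquitinases of unrelated enzyme families. The ratio of CHMP1A to CHMP1B was -0.33, -0.65, -0.49 and -0.35 in parental replicates 1 to 4 and -1.15, -1.50, -1.04 and -1.60 in Axin1+ replicates 1 to 4. The groups did not overlap, and the mean ratio was lower by 0.86 on the log2 scale in the Axin1+ libraries. Permuting the labels in all 70 ways (exact permutation test, two-sided) gave p = 0.0286, the smallest it can give. After Benjamini-Hochberg adjustment over the 10 pairs it was 0.286, which did not pass. A single pair at the smallest p cannot pass after adjustment over 10 pairs, so the adjusted value does not decide on this ratio. Each gene alone was already without overlap, CHMP1A lower and CHMP1B higher in the Axin1+ libraries. The non-overlap of the ratio and its p therefore follow from those values and are no separate result. The next was STAMBP to USP8, with a difference of -0.44 (exact permutation p = 0.143, adjusted 0.694). The ratio of the ATPases, VPS4A to VPS4B, differed by -0.06, and that of the filament subunits, CHMP4B to CHMP4C, by -0.01. CHMP2A to CHMP2B was 3.15 in parental replicate 1 and 1.13 to 1.44 in the other parental libraries.

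**Figure D5:**
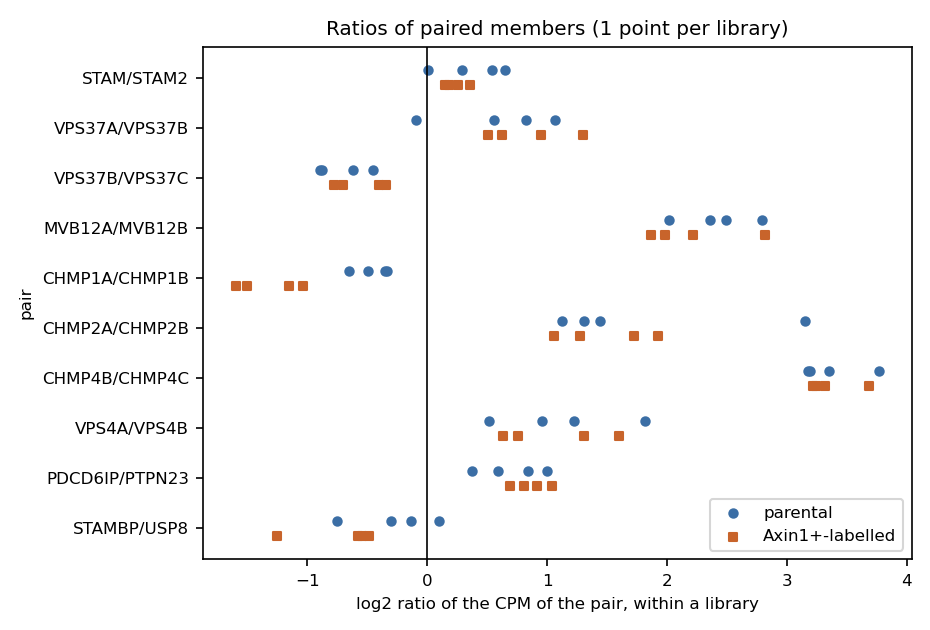
Log2 ratio of the CPM of 10 pairs of ESCRT genes, with 1 point for each library (blue circles parental, orange squares labelled Axin1+). CHMP1A/CHMP1B is the pair whose groups do not overlap, as was already so for each of its genes alone. The lone point at 3.15 in CHMP2A/CHMP2B is parental replicate 1.

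Genes that work next to the relay were read from 4 further lists, against the same background of 19.2% called. Of 27 tested ESCRT partners outside the core, 1 rose and 4 fell (18.5%). CC2D1B, which binds CHMP4 subunits, fell from 83.5 ± 10.0 to 57.5 ± 4.11 CPM (SD, n = 4 each; log2 fold change -0.54, adjusted p = 0.0126). ARRDC1, an adaptor that recruits TSG101 to the cell surface, fell from 34.7 ± 2.72 to 21.6 ± 4.41 CPM (SD, n = 4 each; -0.69, adjusted p = 0.0166). UBAP1L, a relative of UBAP1, fell from 4.75 ± 2.95 to 1.51 ± 0.416 CPM (SD, n = 4 each; -1.63, adjusted p = 0.0183), at a low level. Parental replicate 1 held 9.17 CPM of UBAP1L and the other parental libraries 3.21 to 3.32 CPM. Without it the log2 fold change was -1.11 (adjusted p = 0.0173), and without Axin1+ replicate 4 the call was lost (adjusted p = 0.0642). The median over the neighbours of ARRDC1 was -0.30 on the log2 scale. The ARRDC1 call was lost without Axin1+ replicate 3 (adjusted p = 0.0501). The number called in this list was 3 without parental replicate 2 and 2 without Axin1+ replicate 3 or 4. Over all genes 1508, 1531 and 1394 were then called, in that order, against 2738 with all libraries.

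The phosphoinositide PI3P recruits ESCRT-0 to endosomes. Of 17 tested genes of PI3P and PI(3,5)P2 metabolism or binding, 3 rose and 0 fell (17.6%), with a median log2 fold change of 0.25. MTMR4, a PI3P phosphatase, rose from 22.2 ± 4.0 to 38.4 ± 6.21 CPM (SD, n = 4 each; 0.79, adjusted p = 0.00999). BECN1, a subunit of the VPS34 lipid kinase complexes, rose from 66.4 ± 10.3 to 107 ± 17.5 CPM (SD, n = 4 each; 0.69, adjusted p = 0.0128). ZFYVE16 (endofin), a PI3P-binding endosomal protein, rose from 15.5 ± 2.97 to 26.2 ± 4.12 CPM (SD, n = 4 each; 0.76, adjusted p = 0.0154). The values of the groups did not overlap in these 3 genes. The medians over their neighbours were also above 0, at 0.44 for MTMR4, 0.27 for BECN1 and 0.47 for ZFYVE16 on the log2 scale. The ZFYVE16 call was lost without Axin1+ replicate 4 (adjusted p = 0.0549).

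The HOPS and CORVET complexes tether endosomes for fusion. Of 14 tested genes of the tethers and of factors that act with them (such as MON1A, MON1B and CCZ1), 2 rose and 1 fell (21.4%). VPS16, a shared core subunit of both tethers, fell from 26.6 ± 1.90 to 16.8 ± 0.800 CPM (SD, n = 4 each; -0.66, adjusted p = 0.00553). PLEKHM1, a HOPS-binding adaptor, rose by a log2 fold change of 0.55 (adjusted p = 0.0296), and VPS41, a HOPS subunit, by 0.40 (adjusted p = 0.0395). Only 1 tether gene was called without parental replicate 2, 3 or 4 or without Axin1+ replicate 3. Over all genes 1508, 2061, 2160 and 1531 were then called, in that order, against 2738 with all libraries. The neighbours of VPS16 had a median of -0.29 and those of PLEKHM1 0.31, while those of VPS41 had -0.08. The VPS16 call held in all 19 alternatives, the PLEKHM1 call was lost in 5, each of them without 1 library, and the VPS41 call in 10. Retromer and its sorting nexins carry cargo out of endosomes before ESCRT takes it. Of 18 tested genes, which also took in the WASHC genes, VPS26C and VPS35L of related complexes, 1 rose and 0 fell (5.56%). It was the sorting nexin SNX2, from 57.4 ± 7.56 to 80.3 ± 14.2 CPM (SD, n = 4 each; 0.48, adjusted p = 0.0486), with overlap between the groups and a neighbour median of 0.56. Its call was lost in 10 of the 19 alternatives, among them leaving out any 1 library other than Axin1+ replicate 2 (adjusted p from 0.0502 to 0.147). The retromer core gene VPS35 was at 0.19 (95% interval -0.09 to 0.47) and VPS29 at -0.01 (-0.25 to 0.22).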

How the data were processed

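The authors deposited raw counts per gene, without normalization, for 8 samples. Per the submitters' processing notes, bcl2fastq, fastp 0.23.1, STAR 2.7.4 and GRCh38 were used; the counting program, annotation and strand setting are not given in the sources used here, so reads of overlapping or near-identical genes may have been split or dropped. Groups and replicate numbers came from the sample titles, and 0 columns belonged to no sample.

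The tests were run with edgeR 4.0.16 under R 4.3.3 (filterByExpr with minimum count 10 and minimum total 15, TMM, glmQLFit and glmQLFTest, no covariates). P-values are two-sided and were adjusted over 14289 genes at a threshold of 0.05. The SE was taken as the size of the log2 fold change divided by the root of the F statistic. Ratios of pairs used log2 CPM with a prior count of 2. Between 99.75% and 99.85% of counts lay in tested genes, and totals of 11232951 to 26400782 set the precision of low genes. Identifiers, coordinates, exon lengths and GC content came from GENCODE release 29 (57943 of 58206 identifiers matched). Promoters came from RefSeq.

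All members are named. Full values are given for members called and for pairs whose ratios do not overlap, others were added after their values were seen, and up to 3 called genes by smallest p are named from each neighbouring list, whereas VPS35 and VPS29 were added afterwards. The members and lists were chosen with earlier results of these data known. The 19 alternatives began with other scalings (DESeq2 size factors, upper quartile, total counts), other filters, DESeq2 1.42.0 and limma-voom (limma 3.58.1). The rest were a replicate block, a GC and length offset (splines, 5 degrees of freedom), both together, thinning to 11232951 counts, and leaving out each library. A threshold of 0.01 was also read from the main test and is not among the 19. Tested on simulated data for this comparison (14066 genes, 197 changed), edgeR recovered 56.7% of 2-fold and 98.0% of 4-fold changes, and 5.56% of its 162 calls were false. The simulation changed far fewer genes than were called in the real data, and no library was made to stand apart. Its rates need not hold for the real data.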

Additional observations from a re-analysis of the deposited data

Results flagged for a closer look

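Within groups of 4 libraries, 6 of 66 member-and-group combinations held a library far from the other 3, by Dixon's test at its 95% level, where chance gives about 3.3. Parental replicate 1 was that library in 5 of them. STAM stood at 16.6 CPM there against 28.2 to 29.9 CPM in the other parental libraries, and PDCD6IP at 93.0 CPM against 132 to 140.4 CPM. VPS28 stood at 90.2 CPM against 52.1 to 55.6 CPM, SNF8 at 129.8 CPM against 97.1 to 100.7 CPM, and CHMP2A at 232 CPM against 118 to 135 CPM. The sixth was VTA1 in Axin1+ replicate 4, at 87.2 CPM against 69.5 to 71.9 CPM.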

How the results depend on the processing

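LITAF and CHMP1B kept their direction and their adjusted p under 0.05 in all 19 alternatives. At a threshold of 0.01, 964 genes, 1 member (LITAF), 0 other partners, 1 PI3P gene, 1 tether and 0 retromer genes were called. With the GC and length offset 5 members were called (3 higher, 2 lower), and 3238 genes in all. DESeq2 called 5 tethers and 4 retromer genes, DESeq2 size factors 0 retromer genes, and the block with the offset 2. Over all genes these settings called 3504, 2766 and 2666, in that order, against 2738 in the main test. Deviations of same-numbered libraries from their group means had r = -0.06, 0.01, -0.03 and 0.23. The number was best matched by its own in replicate 4 alone. With 4 libraries a group these values do not settle whether the numbers pair the samples. With the replicate block 2033 genes, 2 members (without VTA1, adjusted p = 0.0583) and 3 other partners were called. Thinning also ended the VTA1 call (0.0570).

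Median log2 fold changes with total counts only were 0.086 for all genes, 0.20 for members, 0.21 for ESCRT-III, 0.081 for other partners and 0.22 for tethers. Without a filter they were 0.051 for all genes and 0.15 for members, and all genes stood at 0.016 with limma-voom and 0.013 with the block. With the GC and length offset, alone and then with the block, they were -0.038 and -0.029 for all genes, 0.048 and 0.043 for members, -0.15 and -0.14 for associated genes, and 0.088 and 0.091 for tethers. ESCRT-III stood at 0.080 with the offset. Signs turned in VPS37A (-0.11 and -0.10 with the offset, alone and with the block), CHMP3 (0.077 with total counts, 0.019 without a filter) and PDCD6IP (0.030 with total counts), none of which was called.

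Leaving out 1 library gave 1394 to 3523 genes (1394 without Axin1+ replicate 4, 1508 without parental replicate 2, 1531 without Axin1+ replicate 3), 2 to 6 members, 2 to 6 other partners, 1 to 3 tethers and 0 to 1 retromer genes. Medians ran from -0.0039 to 0.015 for all genes, 0.039 to 0.13 for members, 0.069 to 0.17 for ESCRT-III, -0.17 to 0.017 for associated genes and 0.084 to 0.15 for tethers. Log2 fold changes that turned sign ran from -0.30 to 0.0051 for HGS, -0.11 to 0.091 for VPS37A, -0.012 to 0.10 for VPS25, -0.11 to 0.33 for CHMP2A, -0.086 to 0.063 for CHMP3 and -0.17 to 0.017 for PDCD6IP. The cause of these shifts was not tested. With 4 libraries a group, 2-fold changes were recovered in 56.7% of simulated cases. The simulation changed 197 genes, against 2738 called in the real data, so this share need not hold here. Differences of that size or smaller can be missed.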
